A study of Arabidopsis thaliana with 24 samples.

Results

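The data described here are 4 arrays of inflorescence meristems on day 0, the start of a 24-array time course of flower development in Arabidopsis thaliana, each setting decapped against total mRNA. The 4 arrays were chosen by their titles, which name day 0 and sets 1 to 4, and the other 20 arrays cover days 1 to 5 with 4 sets a day. All 24 came from 35S:AP1-GR ap1 cal plants. These lack the floral regulators AP1 and CAL and carry AP1 fused to the hormone-binding domain of the glucocorticoid receptor, driven by the 35S promoter, which is active in most tissues. Such plants pile up inflorescence-like meristems until a steroid activates the fusion protein. Days are counted from that activation, and the labels give the treatment, a solution with 1 µM dexamethasone applied just after bolting began, in the same words for every array. They do not say whether it had been applied when day 0 tissue was taken. Tissue was taken at the surface of the inflorescence from about 25 plants per time point, so each value is that of pooled plants. The 4 sets are separate biological collections per the design, and the dyes were swapped between sets.

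A eukaryotic mRNA carries a cap at its 5′ end that protects it and recruits the translation machinery. Decapping removes it, after which 5′ to 3′ exonucleases can degrade the transcript. Small RNAs add a second source of uncapped ends, because an mRNA that they direct to be cut leaves a 3′ fragment with no cap. In plants, loss of decapping factors is known to disturb the development of seedlings and leaf veins. Here the decapped fraction was captured from polyadenylated RNA by ligating an adaptor to free 5′ ends, in the manner of RLM-RACE, and hybridised with total polyadenylated mRNA of the same tissue on 1 array.

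Each value is a log ratio, likely to base 2 and likely decapped over total, since channel 1 of every sample is decapped mRNA. Neither is stated, and neither is the centring the authors used. If the table held total over decapped, each "higher" below would read "lower". A ratio gives no level of a transcript, so the tissue could not be checked by its markers. Of 7 fixed markers of epidermis, phloem and xylem, 0 had a probe named for them, while 12142 of 26102 probes had no gene named. On day 0 the decapped RNA was in Cy3 in sets 1 and 2 and in Cy5 in sets 3 and 4, so within day 0 a dye effect and a difference between those sets cannot be told apart. Of 26102 probes, 4424 (16.9%) held 1 shared set of 4 values on day 0 and were treated as missing, against 770 to 3596 on the other days. That left 10607 genes with values on all 24 arrays, 1261 of them with a symbol. Of the 285 genes described from the ends of the ranking and the lists, 283 rested on 1 probe.

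Set 1 stood apart from the other day 0 arrays. The median ratio of the tested genes was -0.56 in set 1, -0.02 in set 2, -0.13 in set 3 and -0.22 in set 4, and the SD over genes was 1.80, 1.43, 1.06 and 1.29 in that order. Correlations over genes between day 0 arrays ran from 0.45, for sets 1 and 3, to 0.70, for sets 3 and 4. Set 1 lay farthest from the median of the other 3 arrays for 4747 genes (44.8%), set 2 for 3378 (31.8%), set 3 for 1315 and set 4 for 1167. In 1070 genes set 1 fell outside the range of the other arrays by more than 2, below it in 814 of them. Many of the calls described below that changed without set 1 are therefore given with and without it.

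A gene is called higher or lower when its day 0 mean differed from 0 at an adjusted p under 0.05 by limma, fitted over all 24 arrays with Benjamini-Hochberg adjustment over all 10607 genes. On day 0, 1235 genes (11.6%) were higher and 2934 (27.7%) lower, together 39.3% of those tested. Without set 1 of day 0, 1321 were higher and 1970 lower, of which 980 and 1907 were also called with it. Counted without a test, 1476 genes (13.9%) lay above 0 on all 4 arrays and 3238 (30.5%) lay below 0 on all 4. The low side reached further: 976 lower genes had a mean of -2 or less, while 64 higher genes had 2 or more. The median gene stood at -0.24, and centring each array on its median gave 1891 higher and 2460 lower genes, so that the share of higher genes among those called went from 29.6% to 43.5%. Day 0 means named below read 0.24 higher when set against the median gene. Values of single arrays shift by the median of their own set instead, by 0.56 in set 1 and 0.02 in set 2. The median 95% interval of a day 0 mean was ±0.723, and the number of arrays limits the precision.

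The high end was described by the 12 genes with a symbol that had the highest day 0 means, among those higher with all 4 arrays above 0. CSLC6, which encodes a cellulose synthase-like protein of the Golgi, had ratios of 1.89, 2.64, 2.01 and 2.13 in sets 1 to 4, with a mean of 2.17 ± 0.33 (SD, n = 4; limma adjusted p = 4.73e-06). THO5, a subunit of the THO complex that escorts new mRNA out of the nucleus, had 1.86, 2.33, 1.68 and 1.66, with a mean of 1.88 ± 0.31 (limma adjusted p = 8.96e-05). ATMYC1, a helix-loop-helix regulator of epidermal hair formation, had 1.54, 2.41, 1.49 and 1.85. In these 3 genes the 4 arrays lay close together and far from 0.

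POL encodes a protein phosphatase 2C that acts downstream of CLAVATA signalling in shoot meristems. Its ratios were 0.88, 3.48, 1.68 and 2.42, with a mean of 2.11 ± 1.11 (SD, n = 4; limma adjusted p = 0.00021). LDL2, a homologue of the histone demethylase LSD1, had 1.45, 3.39, 1.58 and 2.02. FANCM, a DNA helicase that limits meiotic crossovers, had 2.02, 3.12, 0.80 and 1.32. Set 2 was the highest of the 4 arrays in all 3 of these genes.

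The subtilisin-like proteases SBT1.3 and SBT3.5 also ranked near the top. SBT1.3 had 0.83, 2.81, 2.20 and 2.73, and SBT3.5 had 0.01, 2.64, 2.46 and 3.22, so that set 1 was the lowest array for both. BZIP53, a bZIP transcription factor of seed maturation and amino acid metabolism, was similar, at 0.25, 3.11, 2.46 and 2.29. CTF2A had 1.36, 3.57, 1.04 and 1.87, and TRM19, a TON1-recruiting protein of the microtubule array, had 2.84, 3.12, 0.59 and 1.16. OPCL1, a CoA ligase of jasmonate synthesis, had 3.64 and 2.26 with decapped RNA in Cy3 against 0.42 and 1.12 in Cy5, and its dye effect over all arrays was -0.90 (limma adjusted p = 0.127). Without set 2 of day 0, SBT1.3, BZIP53 and CTF2A were no longer past the threshold, and of the 12 genes, 4 kept their call under all 20 alternatives run for them.

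The low end was described in the same way, by the 12 genes with a symbol and the lowest means. TUB6 and TUB7, which encode β-tubulins, had -5.76, -8.24, -4.38 and -3.32 for the first and -5.65, -3.97, -4.49 and -4.47 for the second. Their means were -5.42 ± 2.13 and -4.64 ± 0.71 (SD, n = 4; limma adjusted p = 0.00426 and 0.000111). SNF7.1 and VPS24.1, subunits of the ESCRT-III complex that pinches vesicles into endosomes, had -4.31, -3.65, -3.23 and -3.61 and -4.07, -2.99, -3.47 and -3.58. In both pairs the arrays of the partners covered overlapping ranges.

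EX1, or EXECUTER1, which relays singlet oxygen signals from the chloroplast, had ratios of -4.02, -6.80, -4.05 and -4.91. GSA1 encodes the enzyme that makes the aminolevulinate precursor of chlorophyll and haem, and had -4.80, -4.63, -3.47 and -3.85. CYTC-2, a cytochrome c of mitochondrial respiration, had -6.71, -3.38, -2.42 and -2.77, with set 1 more than 3 below the others. ACLB-1, a subunit of ATP-citrate lyase, which supplies acetyl-CoA in the cytosol, had -4.35, -4.07, -2.95 and -3.18.

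MOB1-like, a homologue of the MOB1 activator of NDR kinases that control growth, had -5.37, -4.32, -3.51 and -4.92. BOB1, or BOBBER1, a NudC-domain protein needed for meristem patterning and heat tolerance, had -5.69, -2.83, -3.42 and -4.51 (mean -4.11 ± 1.26, SD, n = 4; limma adjusted p = 3.76e-06). IMP4, a nucleolar protein of rRNA processing, had -5.66, -3.16, -2.05 and -5.25. FMO, a flavin monooxygenase, had -5.25, -5.58, -3.30 and -4.57. All 12 of the lowest genes lay below -2 on every day 0 array, and 9 of them kept their call under all 20 alternatives. ACLB-1 lost its call when any of the 4 day 0 arrays was left out.

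**Figure D1:**
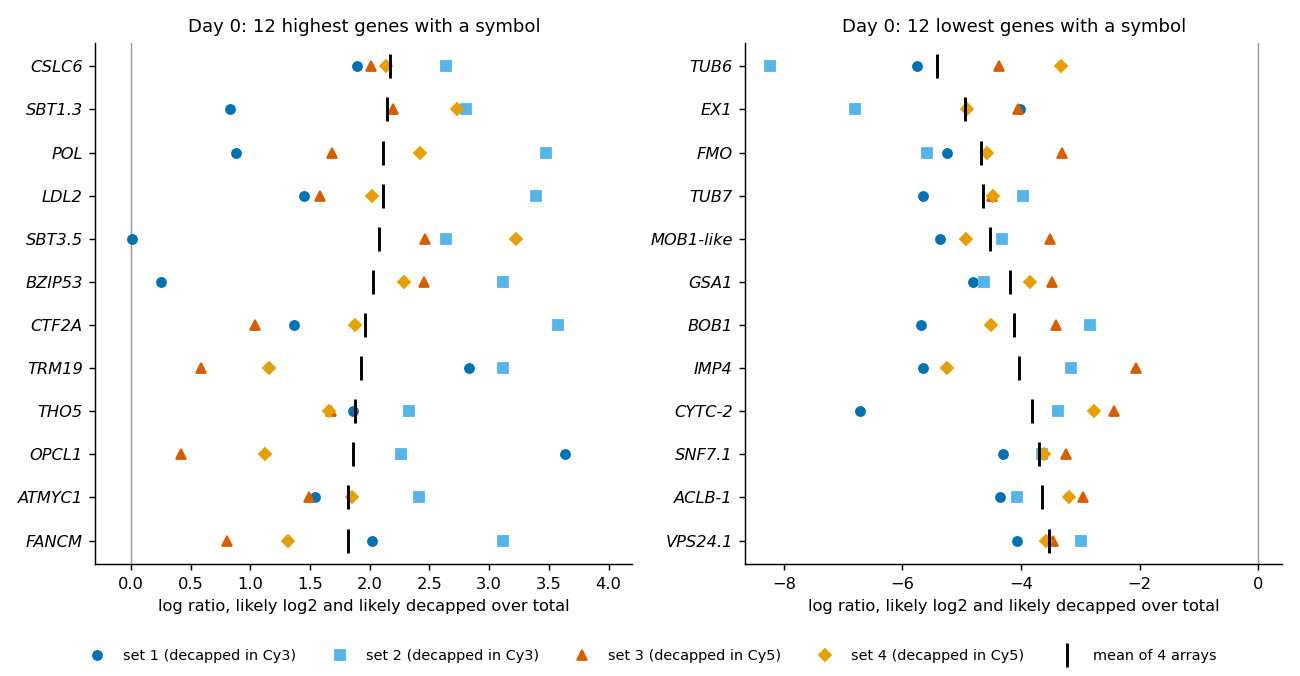
Log ratio (horizontal axis, likely log2, likely decapped over total) on each of the 4 day 0 arrays for the 12 genes with a symbol that had the highest (left) and the 12 that had the lowest day 0 mean (right) among called genes with all arrays on 1 side of 0. Points are arrays, coloured and shaped by set, and black bars are means. Set 1 lies near 0 for SBT3.5 and BZIP53, while all points on the right are below -2.

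By the same rule, 2 genes without a symbol were taken from each end. AT2G01020, annotated as an rRNA, had the highest mean of all genes, 5.81 ± 2.43 (SD, n = 4; limma adjusted p = 3.25e-05). Its ratios were 3.66 and 3.96 with decapped RNA in Cy3 and 6.93 and 8.70 in Cy5, and its dye effect over all arrays was 4.19 (limma adjusted p = 0.00178). AT5G61110 followed at 3.41 ± 3.58, from 2.72, 8.38, -0.18 and 2.73, and lost its call without set 2 of day 0, where its mean was 1.91 (limma adjusted p = 0.208). At the other end AT1G02890 had -4.70, -9.68, -3.10 and -6.53, with a mean of -6.00. AT5G02160 had -4.56, -5.36, -5.05 and -5.15, the tightest of the 4. Apart from the rRNA AT2G01020, these genes have no function given in the annotation used.

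Few regulators of the meristem were found among the probes with a gene named. For this and each list below, the shares over all genes were 11.6% higher and 27.7% lower. Of 35 listed genes of meristem maintenance, 5 were tested, of which 1 was higher and 2 lower. Their median was -0.36. Besides POL, the PHD-finger gene OBE2 was lower, at -3.04, -1.16, -0.88 and -1.99 (mean -1.77 ± 0.97, SD, n = 4; limma adjusted p = 0.0108). ULT1, which opposes Polycomb silencing in floral meristems, was lower at -3.08, -0.92, -1.06 and -1.51. Both lost their call without set 1 or without set 4 of day 0. CLV3, the peptide signal made by stem cells, had -0.17, -0.83, -0.20 and -0.25 and was not past the threshold, nor was ARR15, a cytokinin response regulator, at 1.35, 0.52, 0.68 and 1.24. At organ boundaries, LOB had -2.03, -0.92, -1.26 and -1.73 and was lower, while LAS had a mean of -1.20 that missed the threshold.

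Flowering regulators went both ways. Of 11 tested genes of inflorescence identity and flowering time, 3 were higher and 3 lower (11.6% and 27.7% over all genes). Their median was -0.09. The 3 higher genes act in the circadian or autonomous pathways. LD, a homeodomain protein of the autonomous pathway, had 0.93, 2.40, 1.17 and 1.70 (mean 1.55 ± 0.65, SD, n = 4; limma adjusted p = 3.67e-05). FY, an mRNA 3′ end processing factor, had 0.62, 1.47, 1.06 and 1.78. The clock-associated gene GI had -0.04, 1.87, 1.19 and 0.48, and lost its call without set 2, 3 or 4 of day 0. The 3 lower genes encode MADS-box proteins: AGL72 had -1.83, -1.21, -2.27 and -2.44, AGL71 had -1.55, -0.23, -0.94 and -0.70, and AGL24 had -1.43, 0.02, -0.95 and -0.88. AGL24 lost its call without set 1, 3 or 4, and both AGL24 and AGL71 lost theirs with the day 0 arrays alone. FD, the bZIP partner of the florigen FT, had 0.44, 0.33 and 0.30 in sets 2 to 4 but -1.43 in set 1, and its mean of -0.09 was not past the threshold.

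Of 10 tested genes of flower and floral organ identity, 2 were higher and 0 lower, and the median was -0.17. UFO, an F-box partner of LEAFY, had 0.95, 1.24, 0.73 and 1.10, with a mean of 1.01 ± 0.22 (SD, n = 4; limma adjusted p = 0.000507). SPT, a helix-loop-helix regulator of carpel margins, had 1.65, 0.68, 0.58 and 0.96, and lost its call with the day 0 arrays alone. All 4 arrays lay above 0 for both genes. The others spread on either side of 0, from -1.17 for NGA3 to 0.62 for JAG. SEU, a transcriptional co-repressor, had -2.81, 1.33, -0.10 and 0.53, and its mean of -0.26 had an SD of 1.80. Of the polarity genes, YAB3 was lower at -0.74. Its call was lost under 11 alternatives, among them centring and leaving out set 1 or set 2 of day 0. PHV had 1.43, 1.86 and 1.68 in sets 2 to 4 against -0.61 in set 1. With all arrays PHV was not past the threshold (mean 1.09 ± 1.15, SD, n = 4; limma adjusted p = 0.0564) and without set 1 it was.

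Targets of small RNAs were looked at because cleavage leaves uncapped fragments. Of 67 listed targets, 6 were tested, of which 1 was higher and 1 lower, around a median of 0.35. The pair that passed are both ATP sulfurylases, enzymes of sulfate assimilation that miR395 is known to target. APS3 had 2.25, 1.96, 0.90 and 1.50 (mean 1.65 ± 0.59, SD, n = 4; limma adjusted p = 6.35e-05). APS4 had -1.44, -1.84, -1.66 and -2.12 (mean -1.77 ± 0.29; limma adjusted p = 0.0173 with n = 4) and lost its call without set 3 or 4 of day 0. The arrays of the 2 genes did not overlap. PHV, a miR166 target, is given above, and SMZ and SNZ, miR172 targets, had means of 0.73 and -0.20 with SDs of 1.00 and 1.23. AGL16, a miR824 target, stood at -0.04.

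The mRNA decay machinery itself was split. Of 29 listed genes, 8 were tested, with 2 higher, 2 lower (11.6% and 27.7% over all genes) and a median of 0.39. AT3G46960, listed as SKI2, the helicase that feeds the cytoplasmic exosome, had 0.68, 5.84, 1.43 and 1.49, with set 2 far above the others (mean 2.36 ± 2.35, SD, n = 4; limma adjusted p = 0.00149). AT2G39260, listed as UPF2 of nonsense-mediated decay, had 0.79, 1.97, 0.50 and 0.90 and lost its call without set 2. RRP41, a subunit of the exosome core, was lower at -2.13, -1.12, -2.68 and -2.28 (mean -2.05 ± 0.66, SD, n = 4; limma adjusted p = 0.000724). LSM6A, of the LSM ring that aids decapping, was lower at 0.22, -1.71, -1.04 and -1.02 and lost its call without set 2, 3 or 4.

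VCS, or VARICOSE, is the scaffold of the decapping complex. It had 1.61, 1.67 and 1.82 in sets 2 to 4 but -1.83 in set 1, so its mean was 0.82 ± 1.76 (SD, n = 4; limma adjusted p = 0.195). Without set 1 of day 0 it was past the threshold. AT1G79090, listed as the decapping activator PAT1, showed the same split, with 2.16, 1.28 and 0.80 against -1.71 in set 1, and it too was past the threshold without set 1. LSM1B stayed near 0 on all 4 arrays, at 0.12, -0.03, 0.04 and 0.44. LSM3A had a mean of -0.67, and LSM1A had no day 0 value.

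Families found by symbol or synonym differed in where their members lay. Such a match can miss members, as 1261 tested genes had a symbol. Over all genes the median was -0.24, with the 11.6% higher and 27.7% lower given above. Light-harvesting and photosystem genes were low: of 8 tested, 6 were lower and 0 higher, and the median was -1.98. LHCB4.2, an antenna protein of photosystem II, had -4.25, -1.70, -2.67 and -2.68 (mean -2.82 ± 1.05, SD, n = 4; limma adjusted p = 5.82e-07). PSBY, a small photosystem II subunit, had -3.19, -3.68, -2.91 and -2.38. Without set 1 of day 0, LHCB4.1 lost its call and 5 were lower. LHB1B2 was the exception in direction, at -0.98 and -0.76 in Cy3 and 1.86 and 2.26 in Cy5, and was not past the threshold.

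Of 6 tested histone genes, 1 of them a linker histone and the rest core histones, 3 were lower, with a median of -1.03. HTB1, a histone H2B gene, had -3.20, -2.74, -3.01 and -3.04, a mean of -3.00 ± 0.19 (SD, n = 4; limma adjusted p = 5.2e-07). HIS4 was lower at -1.74 ± 0.47 and lost its call without set 3. HIS1-3, a linker histone induced by drought, was lower at -4.90, -2.44, 1.85 and -5.80, a call lost without set 1, 2 or 4. HTB2, another H2B gene, had 3.25, 0.24, -2.23 and 0.12, and its 4 arrays spanned more than those of HTB1. Histone genes of 1 type are near-identical in sequence, and how far the probes tell them apart is not given.

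Of 6 tested genes found by a bHLH name, 5 were lower, with a median of -1.33. This match by name missed other helix-loop-helix genes. ATMYC1 and SPT, given above, were higher at 1.82 and 0.97, and ALC, given below, was lower at -1.13. ILR3, bHLH104, bHLH115 and bHLH34, which are related factors of the iron deficiency response, had means of -3.19, -0.74, -2.60 and -1.63. The 4 arrays of ILR3 were -4.04, -2.94, -2.61 and -3.15 (SD 0.61, n = 4; limma adjusted p = 1.55e-06). Those of bHLH104 lay between -0.69 and -0.82, the narrowest of the 4 genes, though its call was lost with the day 0 arrays alone. Without set 1 of day 0, bHLH34 lost its call and 4 were lower. bHLH121, which acts upstream of iron uptake, was not past the threshold at 0.29 ± 0.30 (n = 4).

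Calmodulin-like proteins, which are calcium sensors, included 5 lower and 0 higher of 8 tested, around a median of -1.68. CML23 had -2.41, -2.62, -3.04 and -2.92 (mean -2.75 ± 0.29, SD, n = 4; limma adjusted p = 1.28e-05), and CML43 and CML38 had means of -3.07 and -2.67. CML30 had -4.12, -0.95, 0.14 and -1.90 and lost its call without set 1. CML42 lost its call without set 1, 2 or 4, so that without set 1 of day 0 the family had 3 lower genes. CML41 stood at 3.24 in set 1 and between -0.53 and 0.26 in the others. Subunits of succinate dehydrogenase, the enzyme shared by respiration and the citric acid cycle, were lower in 3 of 4 tested genes, with SDH3-1 at -2.67 ± 0.35 and SDH2-2 at -1.95 ± 0.29 (SD, n = 4). SDH2-1, at -0.68, lost its call without set 2, 3 or 4.

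Ubiquitin-specific proteases, which remove ubiquitin from proteins, formed the family with the largest share of higher genes among those with at least 5 tested members. Of 12 tested, 6 were higher and 0 lower, around a median of 0.83. UBP21 had 1.35, 2.00, 1.74 and 1.68 (mean 1.69 ± 0.27, SD, n = 4; limma adjusted p = 5.5e-05), and UBP19 and UBP16 had means of 1.45 and 1.25. Set 1 was the lowest array of the family: the median of the 12 was -0.04 in set 1, 1.89 in set 2, 0.58 in set 3 and 0.80 in set 4. All 12 lay above 0 in sets 2 and 3, but 5 did in set 1. Without set 1 of day 0, 10 of the 12 were higher, and without set 2, 3 were higher and 1 was lower. UBP26, which acts on histone H2B, had 0.14, 2.01, 0.52 and 0.90, and lost its call without set 2, as did UBP23 and UBP27.

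Genes listed for subunits of the vacuolar-type proton pump did not share a ratio, and some are paralogues for the same subunit. The pump has a membrane sector with a large subunit a and small proteolipid subunits c. Of 3 tested genes for subunit a, VHA-A3 and VHA-A2 were higher, at -0.40, 1.19, 1.69 and 1.66 (mean 1.03 ± 0.98, SD, n = 4) and -0.10, 0.42, 0.91 and 0.92 (mean 0.54 ± 0.49), though both lost their call without set 2, 3 or 4. VHA-A1, the other, had -1.92, 1.11, 0.98 and 0.30 and was not past the threshold. AVA-P1, a proteolipid subunit, was lower at -4.02, -2.86, -3.38 and -3.16 (mean -3.36 ± 0.49; n = 4, limma adjusted p = 2.67e-07). AT4G02620, listed as subunit F, was lower at -3.65, -0.60, -3.58 and -3.84. AVA-P2, a second proteolipid gene, had -1.37, -1.95, 0.07 and 0.21 and was not past the threshold. The arrays of AVA-P1 lay below those of all 3 subunit a genes, while those of AVA-P2 overlapped with them.

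Nuclear RNA polymerase subunits showed a like spread, with 1 higher and 4 lower of 14 tested and a median of -0.36. Over all genes 11.6% were higher and 27.7% lower. NRPA1, the largest subunit of RNA polymerase I, had 0.07, 2.28, 1.07 and 1.07 and lost its call without set 2. NRPB6A and NRPB6B, paralogues of a small subunit shared by several polymerases, were lower at means of -3.50 ± 0.88 and -1.82 ± 0.62 (SD, n = 4). NRPB3 was lower at -2.62 ± 1.20 and NRPB8B at -1.16 ± 0.10. The remaining 9, including the large subunits NRPC1 at 0.13 and NRPC2 at -1.15, were not past the threshold. Without set 1 of day 0, NRPB12 passed it too and 5 were lower.

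**Figure D2:**
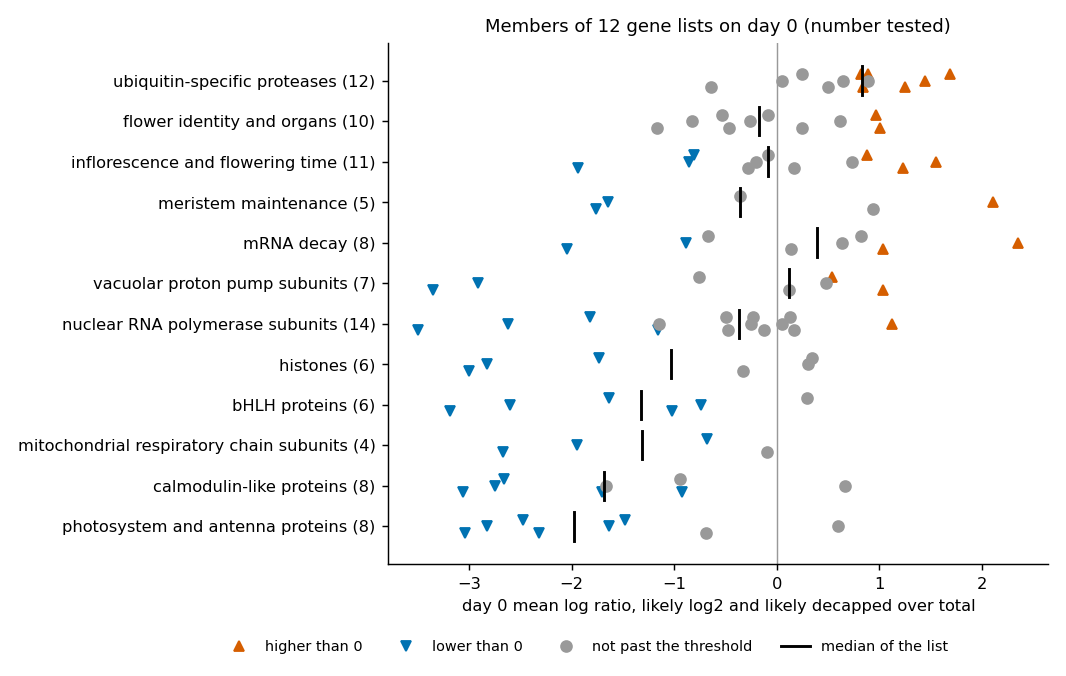
Day 0 mean log ratio (horizontal axis, likely log2, likely decapped over total) of each tested member of 12 gene lists. Upward triangles are higher genes, downward triangles lower genes, circles genes not past the threshold, and black bars list medians. Ubiquitin-specific proteases have a median of 0.83 and photosystem genes one of -1.98, while pump and polymerase subunits lie on both sides of 0.

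Other families were mixed or mostly near 0, and their counts stand beside 11.6% higher and 27.7% lower over all genes. MADS-box genes had 31 tested of 58, with 0 higher and 8 lower, and 23 had no day 0 value. AGL26 was lower at -2.55, -1.25, -2.24 and -2.32. Of 16 cytochrome P450 genes, 2 were higher and 5 lower, and the paralogues CYP71B22 and CYP71B37 stood at 1.69 and -3.19. Glycosyltransferases had 2 higher and 3 lower of 35 tested, which became 5 and 2 when arrays were centred. Expansins, which loosen cell walls, had 5 lower of 17, led by EXPB3 at -2.61 ± 0.82 (SD, n = 4). Aux/IAA repressors had 3 lower of 7, and IAA34, at 0.66, 5.04, 0.09 and 5.10, was not past the threshold with a mean of 2.72 ± 2.72 (SD, n = 4). Of 6 WRKY genes, WRKY20 was higher at 2.43, 2.07, 0.80 and 1.51. In the bZIP family, 3 of 15 were higher and 3 lower, which became 5 and 1 when arrays were centred. Single arrays decided several of these counts. Without set 1 of day 0, lower genes numbered 6 among MADS-box, 1 among Aux/IAA, 3 among expansins, 0 among bZIP genes and 0 among glycosyltransferases. Without set 4, lower genes numbered 5 among MADS-box and 3 among P450 genes. Without set 2, 0 glycosyltransferases were higher and 5 lower, and 1 bZIP gene was higher and 4 lower.

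Ratios were ordered by gene span, the distance from start to end of the annotated gene. In 5 classes of about 2115 genes each, from a median span of 1014 to one of 4190 base pairs, the share of higher genes was 3.73%, 5.91%, 9.31%, 16.8% and 22.6%. The share of lower genes was 29.1%, 37.1%, 33.8%, 26.1% and 12.2%. Median ratios were -0.30 in the class of shortest genes, -0.47 in the next and 0.13 in the class of longest genes. The 4 arrays differed in this: from the shortest to the longest class the median moved by 1.15 in set 2, 0.50 in set 3 and 0.40 in set 4, but by -0.17 in set 1. On the 20 arrays of days 1 to 5 the same difference lay between 0.12 and 0.87, above 0 on all 20. Set 1 of day 0 was thus below, and set 2 of day 0 above, every array of the later days. The tested ubiquitin-specific protease genes spanned 2835 to 6823 base pairs, and the photosystem genes 1045 to 1797. The part of span in the results for these families was not tested.

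**Figure D3:**
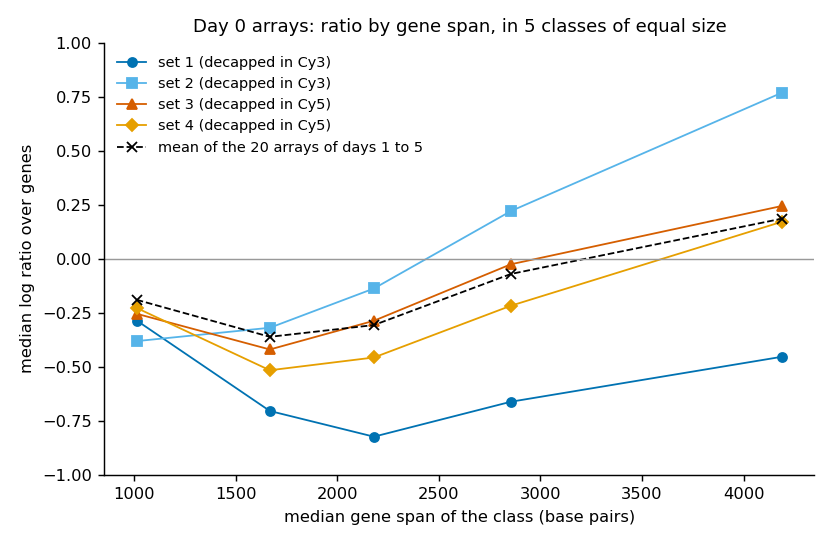
Median log ratio over genes (vertical axis, likely log2) in 5 classes of gene span (horizontal axis, median span of the class in base pairs) for each day 0 array and for the mean of the 20 later arrays. Set 2 climbs to 0.77 in the longest class, sets 3 and 4 to 0.24 and 0.17, and set 1 ends at -0.45.

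Day 0 was then set against the mean of days 1 to 5, which asks whether the ratio of a transcript before flowers began to form differed from its ratio afterwards. By limma with adjustment over all genes, 0 were higher and 0 lower on day 0. At an unadjusted p under 0.05, 55 genes (0.519%) were higher and 312 (2.94%) lower, together 3.46%. Chance alone passes about 5% of genes at that threshold. Single day 0 arrays moved these counts in opposite directions. Without set 1, 295 were higher and 263 lower, without set 2, 108 and 965, without set 3, 146 and 364, and without set 4, 61 and 225. With array weights 241 were higher and 805 lower. After adjustment 0 passed without set 1 and 1 without set 2. When arrays were centred, 102 were higher and 213 lower. The median 95% interval of a difference was ±0.792.

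The ranking of genes was largely shared. Over genes, day 0 means and the means of days 1 to 5 had a Pearson correlation of 0.936 and a Spearman correlation of 0.927, given as a description since genes are not independent replicates. By day, the Pearson correlation of day 0 was 0.915 with day 1, 0.913 with day 2, 0.855 with day 3, 0.916 with day 4 and 0.914 with day 5. Of the 1060 genes ranked highest on day 0, 803 (75.8%) were among the 1060 highest over days 1 to 5, and of the 1060 lowest 849 (80.1%) were shared, while 0 genes changed ends. All 1235 higher genes had a mean above 0 over days 1 to 5, and 811 of them were above 0 on all 20 arrays. Of the 2934 lower genes, 2920 had a mean below 0 and 1386 were below 0 on all 20. A gene moved by a median of 5.09 percentile points, and 19 genes moved by more than 50, 15 of them up.

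**Figure D4:**
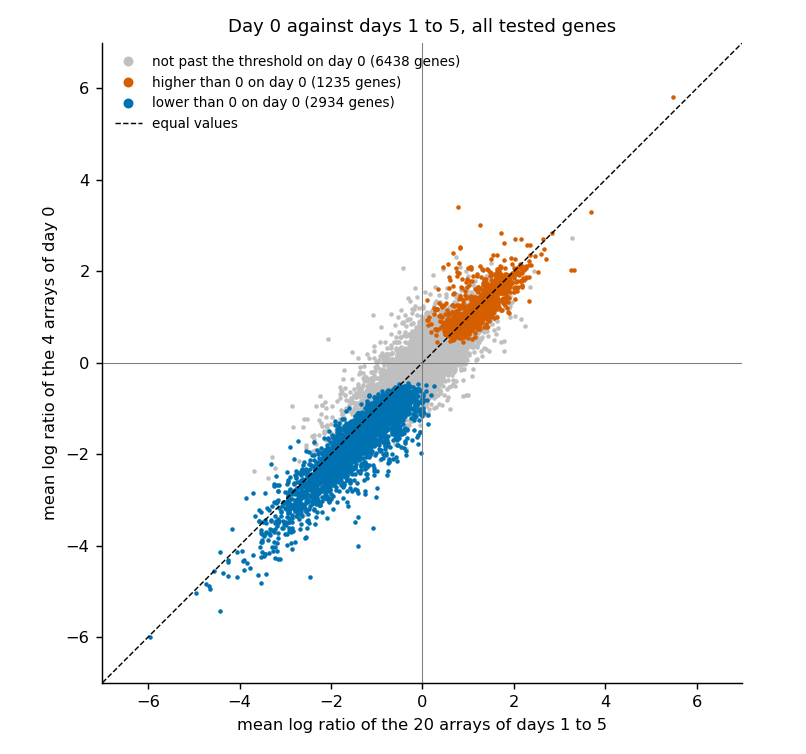
Mean log ratio of the 4 day 0 arrays (vertical axis) against the mean of the 20 arrays of days 1 to 5 (horizontal axis) for 10607 genes, both likely log2. Orange points are the 1235 higher genes, blue points the 2934 lower genes and grey points the rest. Points follow the dashed line of equal values, with all orange points right of 0.

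The genes named next had the smallest p-values for this contrast in each direction, and none passed the adjusted threshold in the fit described above. On the low side, SERPIN1, an inhibitor of cysteine proteases, had -1.72, -0.72, -1.81 and -1.93 on day 0, while the 20 later arrays ran from -1.23 through a median of -0.42 to 0.10. The difference was -1.15 ± 0.23 (SE, limma adjusted p = 0.27), and set 2 alone fell within the later range. That difference passed with array weights and without set 2 of day 0. ALC, or ALCATRAZ, is a helix-loop-helix regulator of fruit opening and the closest relative of SPT. It had -1.84, -1.27, -0.68 and -0.74 on day 0 against -0.65 to 0.45 later, with no overlap (difference -0.98 ± 0.24, SE, limma adjusted p = 0.538). SPT itself, above, differed by less than its spread, with means of 0.97 and 1.15.

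Both plant defensin genes among the named were lower on day 0. PDF1.3 had -1.59, -1.78, -1.49 and -2.42 against a later mean of -0.75 ± 0.64 (SD, n = 20), and PDF1.2 had -2.09, -1.58, -1.12 and -2.12 against -0.85 ± 0.49. The ranges of day 0 and later arrays overlapped for each. CYP71B21, a cytochrome P450, had -4.77 in set 1 and -1.04 to -2.21 in the others, against a later mean of -0.76. DREB2C, a heat and drought response factor, had -3.82 in set 3 and -0.53 to -0.91 in the others, against -0.18 later.

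Among genes without a symbol, the transcribed pseudogene AT5G09710 came nearest to the threshold. It had -1.84, -1.80, -0.999 and -1.69 on day 0, while later arrays ran from -1.12 through a median of -0.20 to 0.87. The difference was -1.49 ± 0.25 (SE, limma adjusted p = 0.0629), and 3 of 4 day 0 arrays lay below all 20 others. It passed with set as a fixed replicate block (limma adjusted p = 0.0109), with a random block, with array weights and with no shared value removed. Over the alternatives run its limma adjusted p ranged from 0.00723 to 0.939. AT4G10890 had -4.75, -2.34, -3.18 and -4.15 on day 0 against -2.70 to 0.66 later (difference -2.52 ± 0.48, SE, limma adjusted p = 0.166). Its difference passed with array weights and without all arrays of set 2, and the lowest limma adjusted p over the alternatives run was 0.00695. AT3G11580 had -1.33, -1.10, -1.01 and -1.05 against -0.87 to 1.26, with no overlap. Over all genes, 4 (0.0377%) had every day 0 array below all 20 others and 0 had every one above. They were AT3G11580, ALC, AT3G08990 and AT4G21520, the last pair named because of their values.

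The 9 genes on the high side had differences that did not pass either. UGT84A3, a glycosyltransferase of hydroxycinnamates, had 0.56, 0.91, 0.20 and 0.17 against a later mean of -0.58 ± 0.68 (SD, n = 20), with a difference of 1.04 ± 0.27 (SE, limma adjusted p = 0.704). LEP, an ERF transcription factor of leaf and meristem development, had 0.25, 1.30, 0.86 and 1.30 against 0.10 ± 0.38. LpxD2, of lipid A-like synthesis, stayed below 0 at -0.71, -0.63, -0.78 and -0.46 but above its later mean of -1.58. GH9A3, an endoglucanase, had 0.44 to 0.60 in sets 2 to 4 and 1.07 in set 1, against -0.16 later. UGT73C7 and OTP86, an RNA editing factor of the chloroplast, had day 0 means of 0.78 and 0.83 against later means of -0.13 and 0.13. AT5G53637, AT1G67635 and AT5G35430 were above 0 on all day 0 arrays, with means of 2.83, 2.50 and 1.76 against 1.71, 0.82 and 0.95. Day 0 and later arrays overlapped for all 9 of these genes.

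**Figure D5:**
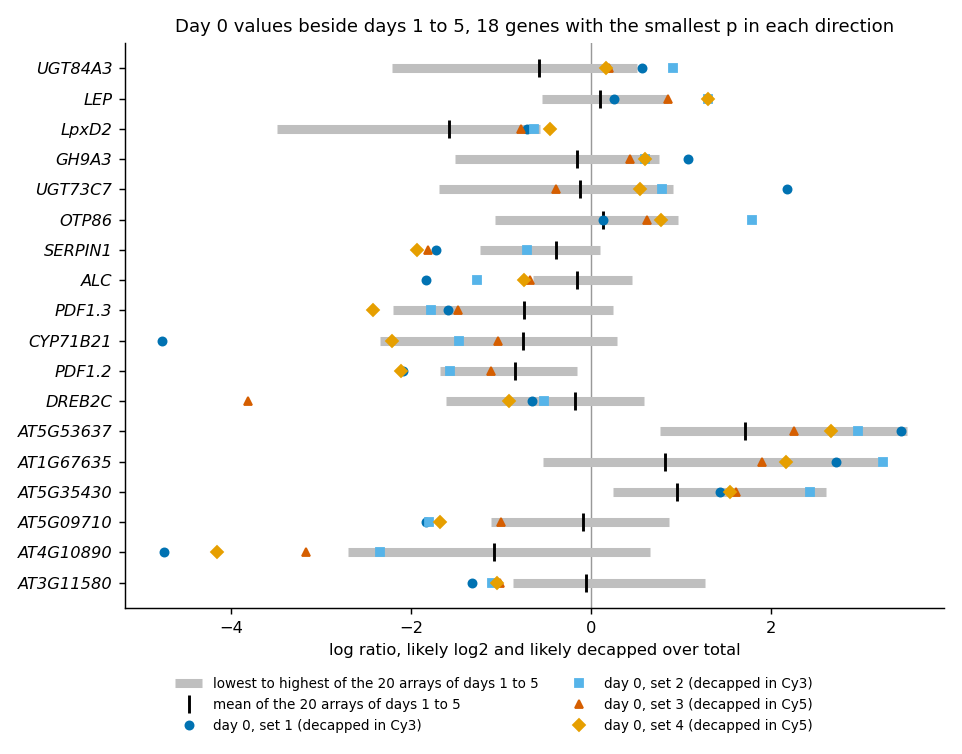
Log ratios (horizontal axis, likely log2, likely decapped over total) of 18 genes with the smallest p-values for day 0 against days 1 to 5, 9 in each direction. Coloured points are the 4 day 0 arrays, grey bars span the lowest to highest of the 20 later arrays, and black ticks are their means. For ALC and AT3G11580 the day 0 points lie wholly below the grey bar.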

How the data were processed

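The 4 day 0 arrays and the 20 arrays of days 1 to 5 are 2-colour long-oligonucleotide arrays of decapped against total mRNA. The deposited table holds log ratios processed by the authors, read here as log2 and as all turned the same way, though neither is stated. The sources used here give no background correction, normalization, log base or direction. Columns were matched to arrays by title. Values of 1 gene's probes were averaged. The platform annotation named 13960 of 26102 probes, and 13912 matched RefSeq's table for TAIR10.1, used for symbols, kinds and spans only, since the annotation's build is not named. For each day the most common set of 4 values shared by many probes was treated as missing, which left 2368 of 13745 genes without a day 0 value. A gene needed a value on every day, so 10607 were tested.

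Ratios were fitted with limma 3.58.1 in R 4.3.3 (lmFit and eBayes) with a mean per day and a dye term over 24 arrays, so the spread is shared across days. The day 0 mean and its difference from the mean of days 1 to 5 were tested two-sided, with Benjamini-Hochberg adjustment at 0.05. Of the 4169 calls, 3633 had all 4 arrays on 1 side. The script was checked on simulated data. Tables and figures used Python 3.11.15, pandas 2.3.3, numpy 2.4.6 and matplotlib 3.10.9.

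Genes were named by rule: the 12 highest and 12 lowest means among called genes with a symbol and all arrays on 1 side, the 6 with a symbol and 3 without that had the smallest p for the difference in each direction, list members and family extremes, and 2 without a symbol at each end. Other family members with values illustrating their family were added after their values were seen. The members and lists were chosen with earlier results of these data known. A family of kinesins was left out because its pattern took other genes. Alternatives covered blocks, centring, scaling, weights, the dye term, shared values, probes and left-out arrays. Whether set numbers pair arrays across days was not settled.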

Additional observations from a re-analysis of the deposited data

Results flagged for a closer look

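In 21 of 285 genes examined (7.37%), the highest or lowest of the 4 day 0 arrays lay so far from the nearest of the others that its gap, as a share of the whole range, passed Dixon's 95% critical value. Chance passes about 5% of groups. The far array was set 1 in 13, set 2 in 7, set 3 in 1 and set 4 in 0. Over all 10607 tested genes 835 (7.87%) passed, 511 at set 1, 243 at set 2, 39 at set 3 and 42 at set 4.

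Set 1 was the far array, below the others, for VCS (gap share 0.941), FD (0.928), IAA18 (0.911), NRPC2 (0.892), EXPA7 (0.884), SGT (0.875), AGL29 (0.872), AT1G30260 (0.868), UGT80B1 (0.854) and SBT3.12 (0.851). It was above them for AGL38 (0.952), SBT5.4 (0.936) and NRPB12 (0.836). UGT80B1 stood at -3.18 in set 1 and 0.02 to 0.57 in the rest. Set 2 was far above for AT4G02620 (0.920), PPR336 (0.851), NRPC1 (0.846), AT3G46960 (0.844) and UGT85A3 (0.832), and far below for CLV3 (0.881) and AGL41 (0.833). AT4G02620 stood at -0.60 in set 2 and -3.58 to -3.84 elsewhere. Set 3 was far below for DREB2C (0.883). The cause of these departures was not tested.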

How the results depend on the processing

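Day 0 calls leaned on arrays of the other days through the shared spread. With the day 0 arrays alone, 447 genes were higher and 1881 lower, with a dye term added (an alternative chosen after seeing the data) 224 and 1244, and over all 11377 genes with a day 0 value 426 and 1791. Leaving out 1 day 0 array gave 810 to 1321 higher and 1970 to 3043 lower genes, and leaving out all arrays of a set gave 559 to 1526 and 1749 to 2959; the fewest higher genes came without set 2 of day 0 or without all of set 4. Centring gave 1891 higher genes. The count of genes lower in day 0 minus days 1 to 5, 0 as reported, became 3 with set as a fixed replicate block, 1 with a random block, 5 with array weights, 1 with no shared value removed, and 0 to 1 with an array or set left out, being 1 without set 2 of day 0 (SERPIN1, limma adjusted p = 0.0447) or all of set 2; the count of higher genes was 0 in each alternative run. The 3 under the block were AT5G09710 (limma adjusted p = 0.0109), AT3G30460 and AT5G62860 (0.042 each). That block gave 1492 higher and 3305 lower genes on day 0. In 20 pairs of day 0 with another day, same-set arrays had deviations that correlated by -0.25 to 0.28, above 0.1 in 4. The own set was highest in 5. The pairs above 0.1 were sets 2 and 4 on days 2 and 4, where each set had its day 0 dyes. Sets 1 and 3 on those days had -0.17 to 0.098. On days 1, 3 and 5 the dyes of each set were swapped, and dye effects were left in the deviations. The consensus correlation within sets was 0.165, so whether set numbers pair arrays was not settled. Of 5712 values of named genes under 21 alternatives, 4962 kept their direction and call, 401 lost and 144 gained the call, 205 moved and 0 reversed.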

Other observations

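Genes without a day 0 value were more common than on any other day. They numbered 2368 of 13745 (17.2%), against 412 to 1943 on days 1 to 5, and 426 of them lacked a value on day 0 only. Those 426 had small ratios later: the median size of their mean over days 1 to 5 was 0.265, against 0.661 among tested genes, and 11 (2.58%) had a mean over 1 in size, against 33.6%. Of the 426, 0 were above 0 on all 20 later arrays and 0 below. Only the most common shared set of each day was removed, and on days 1 to 5 a further 505 to 4625 probes a day held other shared sets. How many values of the 426 genes were shared in this way was not counted.

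Among the 40 with a symbol, LEA4-5, a desiccation protein of late embryos, had the lowest later mean, -2.10 ± 2.47 (SD, n = 20), with day means from -0.52 on day 1 to -3.84 on day 4. EXPA8, an expansin, had the highest, 1.01 ± 1.29, with 2.19 on day 5. FMA, a regulator of guard cells, stood at -0.41 ± 1.07, and EC1.4, a sperm-activating protein of the egg cell, at 0.52 ± 1.49.

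Pseudogenes not annotated as transcribed had 112 tested members on day 0. Among them 5 (4.46%) passed as higher and 6 (5.36%) as lower, and their median ratio was 0.11. For the 10450 protein-coding genes these counts were 1226 (11.7%) and 2916 (27.9%), around a median ratio of -0.24. The 11 transcribed pseudogenes, AT5G09710 among them, included 1 higher gene (9.09%) and 4 lower genes (36.4%). Their median ratio was -0.17. The annotated miRNA gene and the ncRNA gene on the array, 1 each, were not past the threshold.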
